A study of Homo sapiens with 6 samples.

Results

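The 10 genes described here encode parts of the actin contractile and crosslinking apparatus: ACTA2, TAGLN, TPM1, TPM2, MYL9, CNN1, CNN2, ACTN1, ACTN4 and FLNA. They were picked by gene symbol from a list made with earlier results of these data known. All 10 were found among the 60623 genes of the read count table. The data are bulk RNA sequencing counts of 6 libraries from PANC-1 cells (as labelled), a cell line from a human pancreatic ductal carcinoma, grown in DMEM with FBS. In 3 libraries the cells carried a short hairpin RNA against STN1 (genotype labels STN1, STN2 and STN3 knockdown, titles shSTN1), and in 3 they carried a control hairpin (scramble, genotype label WT). Each library is labelled as a biological replicate, and nothing further describes separate cultures or clones, so p-values cover the variation among these libraries only, and that variation may be technical. Libraries held 18813591 to 23336942 counted reads in the shSTN1 group and 17357223 to 20660453 in the control group.

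Actin filaments become contractile when myosin II pulls on them, and the myosin regulatory light chain controls that pull. Tropomyosins lie along the filament and govern which proteins reach it, calponins and transgelin bind its sides, and alpha-actinins and filamins tie filaments to each other. Smooth muscle and myofibroblasts make large amounts of ACTA2, TAGLN, CNN1 and MYL9, whereas ACTN4, FLNA and CNN2 are used by most cells. Several of these genes are known targets of serum response factor (SRF), which binds a DNA element called the CArG box and takes its cue from the actin monomer pool through the cofactors MRTFA and MRTFB.

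The libraries did not separate by the targeted gene. STN1 stood at 14.8 ± 0.793 CPM (reads scaled by TMM-corrected library size) in shSTN1 libraries and at 16.4 ± 1.95 CPM in control libraries (SD, n = 3 each, log2 fold change -0.15, edgeR adjusted p = 0.253), and it passed as lower, at -0.35, only when library totals alone were used for scaling. CDKN2A, which PANC-1 is known to have lost by deletion, had 0 reads in each shSTN1 library against 3968, 3882 and 3903 reads in the control libraries. Whether both groups hold the same cells was not tested, so every difference below is between libraries as labelled. Correlations of log2 levels were 0.848 to 0.853 between groups and 0.990 to 0.992 within them. Of the 17451 genes tested, 74.1% passed an edgeR adjusted p of 0.05, with 35.6% higher and 38.5% lower in shSTN1 libraries. Markers of carcinoma epithelium were higher in 6 of 6 cases, with the smallest adjusted p for KRT18, KRT8 and KRT19. Their summed level was 5544 to 5713 CPM in shSTN1 libraries and 920 to 981 CPM in control libraries. The fibroblast markers summed to 169.6 to 183.2 CPM in shSTN1 libraries and 73.8 to 89.2 CPM in control libraries. Most of that sum was COL1A1, at 124 CPM in shSTN1 and 46.7 CPM in control libraries. Among these 9 genes 3 were higher (COL1A1, COL3A1 and THY1, at log2 fold changes of 1.40, 0.29 and 1.08), 1 did not pass and 5 were too low to test. Reads of these 5 over the shSTN1 and control libraries were 2 and 30 for LUM, 13 and 27 for PDGFRA and 0 and 6 for DCN. COL1A2 and FAP each had 2 and 1. Smooth muscle markers were low, at a sum of 2.54 to 3.34 CPM in shSTN1 libraries and 12.6 to 15.5 CPM in control libraries. LMOD1 alone had 0.425 CPM in shSTN1 libraries and 10.6 CPM in control libraries. Of the 6 genes 2 were lower (LMOD1 and DES), 1 did not pass (MYH11) and 3 were too low to test. The smooth muscle intermediate filament gene DES had 0 reads in the shSTN1 libraries and 14, 22 and 14 in the control libraries. The part of these markers in the results below was not tested, and in bulk RNA a change in the number of cells of a type and a change in RNA per cell cannot be told apart.

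Promoter windows of 300 bases (250 before and 50 after a RefSeq transcript start, GRCh38.p14) were found for 8 of the 10 genes, 14 windows in all. The 5 windows below are shown because 3 of them hold a CArG box, and the other two belong to the gene with the highest fold change (TPM2) and the gene that did not rise (ACTA2). Capitals mark a CArG box or the letters GGAATG, the core bound by TEAD factors, searched on both strands. Only the strict form of the CArG box, CCWWWWWWGG with W for A or T, was searched. No motifs overlap in these windows.
FLNA, chrX:154374585-154374884, minus strand: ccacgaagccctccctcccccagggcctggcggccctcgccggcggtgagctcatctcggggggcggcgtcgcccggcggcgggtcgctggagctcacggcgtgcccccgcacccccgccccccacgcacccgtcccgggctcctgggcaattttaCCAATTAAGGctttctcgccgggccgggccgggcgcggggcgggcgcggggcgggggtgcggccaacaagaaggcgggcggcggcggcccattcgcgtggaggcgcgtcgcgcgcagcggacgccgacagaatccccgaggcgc
CNN2, chr19:1026358-1026657, plus strand: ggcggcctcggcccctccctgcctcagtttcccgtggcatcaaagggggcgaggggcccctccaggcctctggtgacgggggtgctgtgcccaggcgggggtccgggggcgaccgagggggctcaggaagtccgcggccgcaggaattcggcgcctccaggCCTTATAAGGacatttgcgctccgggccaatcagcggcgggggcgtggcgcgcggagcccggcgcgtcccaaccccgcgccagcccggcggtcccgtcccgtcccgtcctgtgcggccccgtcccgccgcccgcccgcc
ACTN1 (window 3 of 4), chr14:68977517-68977816, minus strand: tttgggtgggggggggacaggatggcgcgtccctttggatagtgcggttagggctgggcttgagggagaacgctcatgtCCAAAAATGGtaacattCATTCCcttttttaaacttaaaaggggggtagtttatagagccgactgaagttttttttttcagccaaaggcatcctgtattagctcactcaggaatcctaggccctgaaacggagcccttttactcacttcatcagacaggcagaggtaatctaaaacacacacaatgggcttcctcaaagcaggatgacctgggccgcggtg
TPM2 (window 2 of 2), chr9:35689876-35690175, minus strand: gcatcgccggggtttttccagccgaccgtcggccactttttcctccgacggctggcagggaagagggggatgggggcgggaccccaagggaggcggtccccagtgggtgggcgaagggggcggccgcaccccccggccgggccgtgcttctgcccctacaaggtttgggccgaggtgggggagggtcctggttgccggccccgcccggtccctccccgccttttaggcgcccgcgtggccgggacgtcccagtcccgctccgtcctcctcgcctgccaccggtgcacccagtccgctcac
ACTA2 (window 2 of 2), chr10:88952724-88953023, minus strand: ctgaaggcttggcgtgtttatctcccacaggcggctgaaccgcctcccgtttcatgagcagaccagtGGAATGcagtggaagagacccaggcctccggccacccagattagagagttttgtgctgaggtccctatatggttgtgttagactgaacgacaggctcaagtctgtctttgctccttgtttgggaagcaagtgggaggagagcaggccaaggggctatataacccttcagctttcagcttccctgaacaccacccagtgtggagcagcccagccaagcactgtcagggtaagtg
A CArG box lies 94 bases before the start in FLNA, 89 before it in CNN2 and 171 before it in ACTN1. The same search found it in 1.29% of 35116 windows across the genome. GGAATG, on either strand, was found in ACTA2 (183 bases before the start) and in ACTN1 (154 bases before it), and in 14.03% of all windows. The windows of ACTA2, TPM1, TPM2, CNN1 and ACTN4 hold no CArG box of this strict form, which says only that these letters are not there. The ACTA2 window shown holds ccctatatgg and ccttgtttgg, which depart from the strict form by a C or a G in the middle. Such variants were not searched for in any window.

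Most of the 10 genes were more abundant in the shSTN1 libraries. Of the 10 genes, 9 passed the edgeR test as higher, 0 as lower, and ACTA2 did not pass, against 35.6% of all genes tested as higher and 38.5% as lower. The median log2 fold change of the 10 was 1.11, against -0.03 over all genes tested. At least 2-fold higher levels were found for 6 of them (TPM1, TPM2, MYL9, CNN2, ACTN1 and ACTN4), against 15.7% of all genes. The levels of the groups did not overlap for 8 of the 10 genes, all higher in shSTN1 libraries, against 36.6% of all genes. Together the 10 genes took 0.633% to 0.647% of the reads in shSTN1 libraries and 0.307% to 0.324% in control libraries. The 3 genes with the lowest counts were ACTA2, TAGLN and CNN1, which are markers of smooth muscle and myofibroblasts. No member reversed its direction under any of the 14 alternatives run, but the calls of TAGLN and CNN1 were lost in some, and 7 to 9 members passed.

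**Figure D1:**
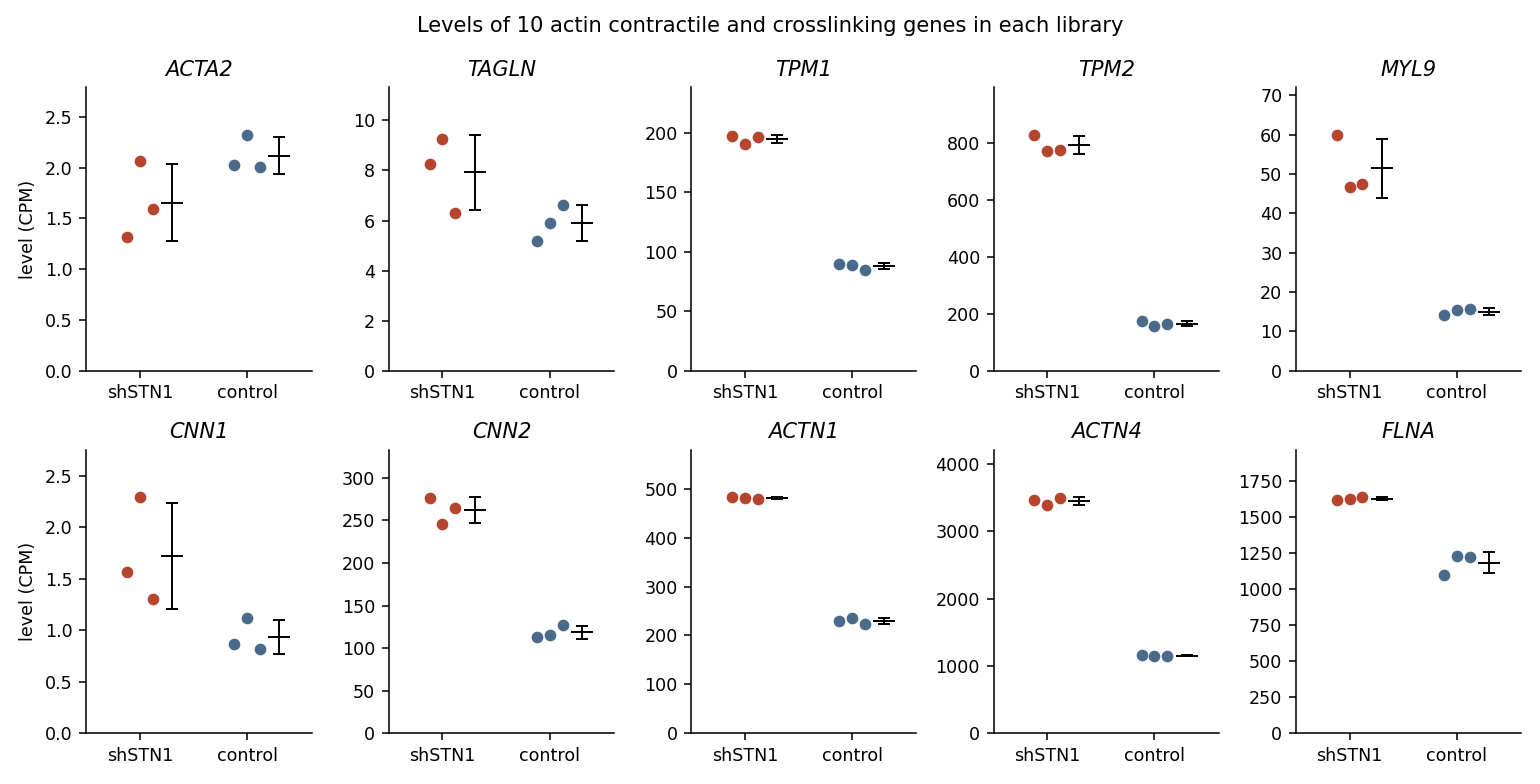
Levels in CPM (vertical axes, each from 0) of the 10 genes in the 3 shSTN1 libraries (left in each panel) and the 3 control libraries (right). Points are libraries, and bars are the mean and SD of 3. The shSTN1 points lie above all control points in 8 panels and overlap them for ACTA2 and TAGLN.

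Both tropomyosin genes were higher, and TPM2 had the highest fold change of the 10 genes. TPM2 (ENSG00000198467.15, chromosome 9, positions 35681992 to 35690121 in GRCh38), which encodes beta-tropomyosin, had 829, 771 and 775 CPM in shSTN1 libraries, against 174, 158 and 163 CPM in control libraries. All 3 shSTN1 libraries lay far above all control libraries, with a log2 fold change of 2.26 (SE 0.0542, edgeR adjusted p = 1.13e-24), or a 4.80-fold difference of mean CPM. TPM1 (ENSG00000140416.21, chromosome 15, positions 63042632 to 63071915), which encodes alpha-tropomyosin, had 197.5, 190.8 and 196.1 CPM in shSTN1 libraries and 89.3, 88.9 and 84.7 CPM in control libraries. Its groups did not overlap either, and its log2 fold change was 1.15 (SE 0.0289, adjusted p = 6.54e-17). TPM3 and TPM4, the other tropomyosin genes of non-muscle cells, were higher by a log2 fold change of 1.02 and 0.89.

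The make-up of tropomyosin transcripts differed as well. Per kilobase of annotated exon, TPM2 gave 61.0% ± 0.255 of the 4 tropomyosin genes' level in shSTN1 libraries and 39.3% ± 1.26 in control libraries (SD, n = 3 each). TPM3 gave 24.9% ± 0.699 in shSTN1 libraries and 38.2% ± 0.972 in control libraries, and TPM4 gave 10.3% ± 0.318 in shSTN1 and 17.2% ± 0.323 in control libraries. TPM1 gave 3.79% ± 0.131 in shSTN1 and 5.28% ± 0.116 in control libraries. The log2 read ratio of TPM1 to TPM2 within a library, which does not depend on library scaling, was -2.02 ± 0.0441 in shSTN1 libraries and -0.91 ± 0.0744 in control libraries. The ratios of the groups did not overlap (difference -1.11, two-sided exact permutation p = 0.1, the smallest that 3 libraries against 3 can give, and 0.175 after Benjamini-Hochberg adjustment over 7 ratios). Exon lengths are the union of all annotated transcripts, which makes the share of TPM1, with 12876 bases, an underestimate if shorter transcripts are the ones made. The same applies to TPM3 (8389 bases) and TPM4 (8632 bases), against 3248 bases for TPM2. Without division by length, TPM3 had 836 CPM in shSTN1 and 413 CPM in control libraries, and TPM2 had 792 and 165 CPM.

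**Figure D2:**
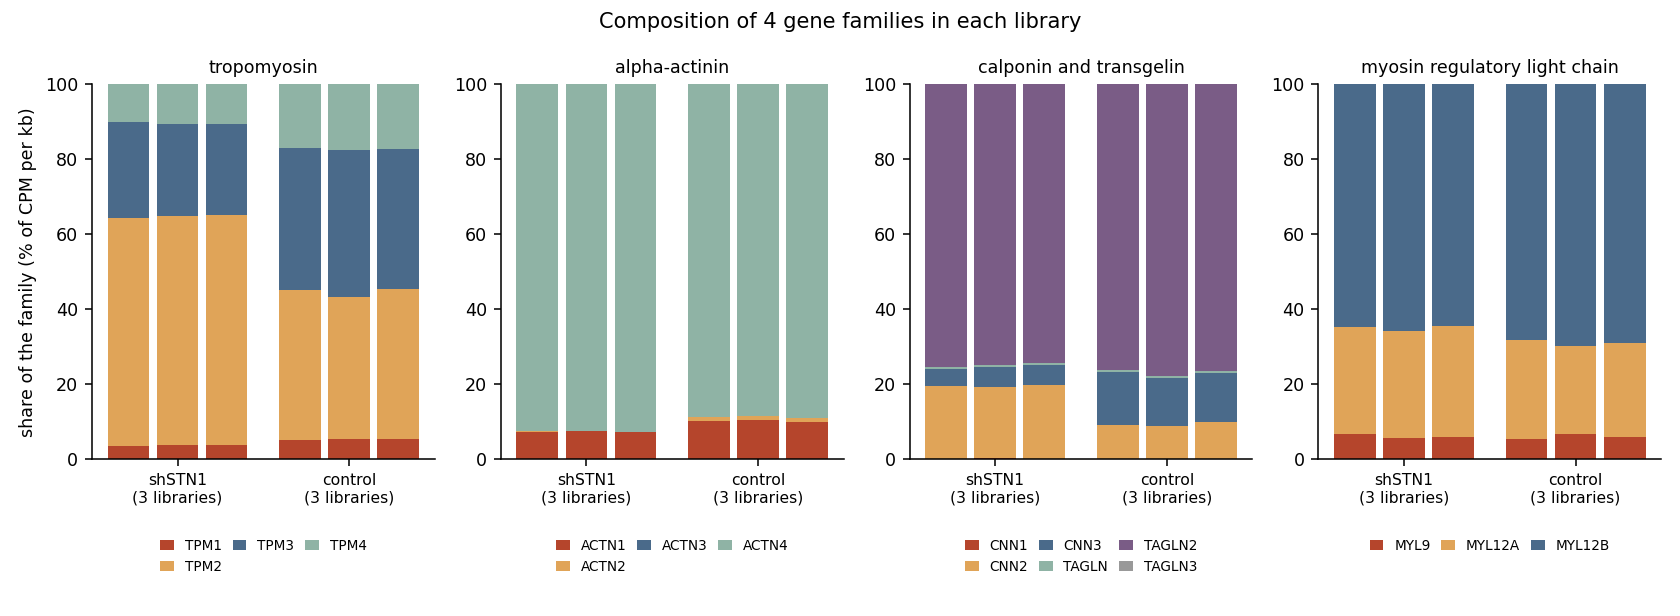
Share of each gene in the level of its family (vertical axis, percent of CPM per kilobase of exon) in every library, with the 3 shSTN1 libraries left of the 3 control libraries in each panel. TPM2 takes 61.0% of tropomyosin in shSTN1 libraries and 39.3% in control libraries, and MYL9 takes 6.09% of the regulatory light chains in shSTN1 libraries and 6.08% in control libraries.

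MYL9, the smooth muscle form of the myosin regulatory light chain (ENSG00000101335.10, chromosome 20, positions 36541484 to 36551447), was higher as well. It had 60.1, 46.7 and 47.6 CPM in shSTN1 libraries and 14.1, 15.3 and 15.7 CPM in control libraries. In the shSTN1 group 1 library stood above the other two, and all 3 lay above the control libraries (log2 fold change 1.78, SE 0.126, edgeR adjusted p = 2.07e-16). The non-muscle light chain genes MYL12A (280 ± 7.26 CPM in shSTN1 and 71.6 ± 9.84 CPM in control libraries, log2 fold change 1.97) and MYL12B (log2 fold change 1.67) were higher by similar amounts. Within the family MYL9 therefore held 6.09% ± 0.662 per kilobase in shSTN1 libraries and 6.08% ± 0.682 in control libraries. The log2 read ratio of MYL9 to MYL12A differed by -0.21 between groups, with overlapping libraries (exact permutation p = 0.3, adjusted p = 0.35). That difference was -0.32 without control replicate 1 and -0.08 without control replicate 2.

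The myosin heavy chains did not move together. Of the 8 myosin II chain genes besides MYL9, 4 were higher, 2 lower and 2 did not pass, with a median log2 fold change of 0.53, so the part that passed was close to the 74.1% of all genes. MYL6, the essential light chain of non-muscle myosin II, was at 488 ± 39.6 CPM in shSTN1 libraries and 215 ± 13.0 CPM in control libraries (log2 fold change 1.18). MYH10, the heavy chain of non-muscle myosin IIB, fell to 72.7 ± 1.85 CPM in shSTN1 libraries, against 217 ± 5.18 CPM in control libraries (log2 fold change -1.57, adjusted p = 1.90e-20). MYH9, the IIA heavy chain, named after its value was seen, had 1442 ± 26.9 CPM in shSTN1 libraries and 752 ± 52.0 CPM in control libraries (log2 fold change 0.94). MYL6B, another essential light chain, was lower by a log2 fold change of -0.62. The smooth muscle heavy chain gene MYH11 was low in both groups, at 1.86 ± 0.582 CPM in shSTN1 and 1.83 ± 0.601 CPM in control libraries.

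Alpha-actinins, which bundle filaments as antiparallel dimers, were higher in both forms that non-muscle cells use. ACTN4 (ENSG00000130402.12, chromosome 19, positions 38647649 to 38731583) had 3468, 3388 and 3495 CPM in shSTN1 libraries and 1156, 1144 and 1151 CPM in control libraries. By mean CPM it was first of the 10 genes in shSTN1 libraries, but in control libraries FLNA stood above it (1185 against 1150.5 CPM). The groups were far apart compared with the spread of either (log2 fold change 1.58, SE 0.0142, edgeR adjusted p = 2.95e-21). ACTN1 (ENSG00000072110.13, chromosome 14, positions 68874143 to 68979440) had 483, 481 and 479.7 CPM in shSTN1 libraries and 229, 236 and 224 CPM in control libraries. Its log2 fold change was 1.07 (SE 0.0221, adjusted p = 8.49e-17). The muscle form ACTN2 fell to 10, 24 and 34 reads in shSTN1 libraries, against 297, 270 and 245 in control libraries (log2 fold change -3.53, adjusted p = 2.21e-15). The log2 read ratio of ACTN1 to ACTN4 was -2.84 ± 0.0251 in shSTN1 libraries and -2.33 ± 0.0430 in control libraries, without overlap (exact permutation p = 0.1, adjusted p = 0.175). ACTN4 thus made up 92.5% ± 0.109 of the alpha-actinin level per kilobase in shSTN1 libraries and 88.7% ± 0.222 in control libraries.

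ACTN4 lay within the range of the genes around it. Of 54 other tested genes within 1 Mb of its start, 50 were higher, 0 were lower and 38 were at least 2-fold higher in shSTN1 libraries, against 35.6%, 38.5% and 15.7% of all genes. Their median log2 fold change was 1.70, and ACTN4 at 1.58 came in position 31 of 55 from the highest. Among these neighbours, named after their values were seen, PPP1R14A, which encodes an inhibitor of myosin phosphatase, had 178 CPM in shSTN1 and 57.2 CPM in control libraries (log2 fold change 1.64). TPM2 also lay among mostly higher genes, with 21 of 30 higher, 2 lower and a median of 0.89, but its own value was above all 30. Among them is TLN1, the gene of the adhesion linker talin, whose start lies at -42.3 kb, upstream of the TPM2 start (log2 fold change 0.81). The neighbourhoods of MYL9 and ACTN1 had medians of -0.19 and -0.23, and both genes were higher than every tested neighbour. TPM1 likewise ranked first, above 10 neighbours with a median of 0.28. Gene dosage was not measured, and its part in these values was not tested.

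**Figure D3:**
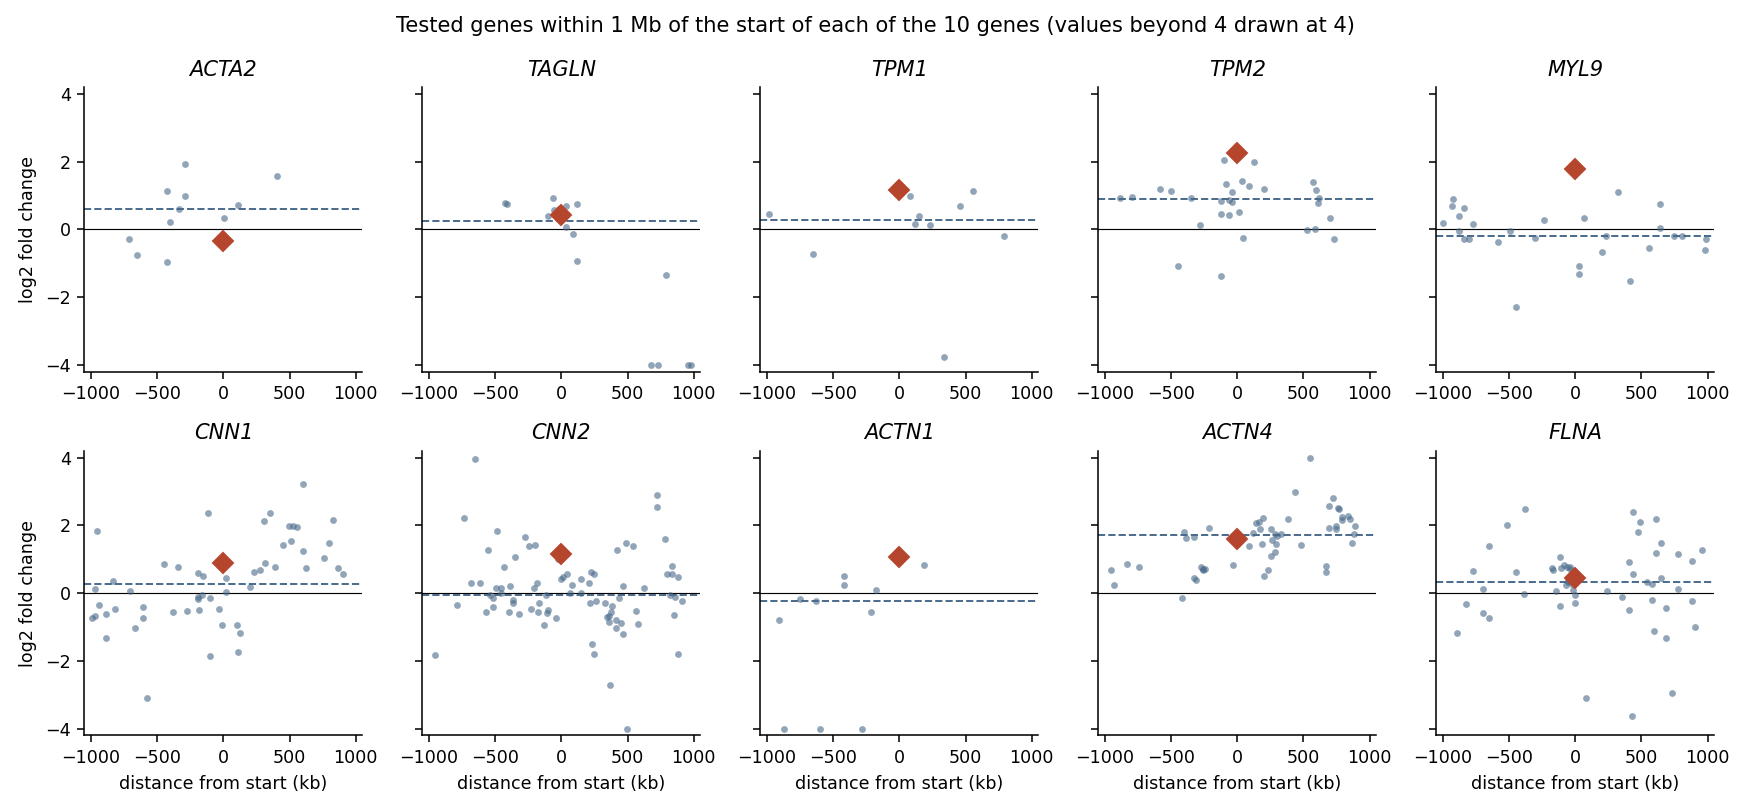
Log2 fold change (vertical axis, shSTN1 minus control) of tested genes by the distance of their start from that of each of the 10 genes (horizontal axis in kilobases, positive downstream). Diamonds are the 10 genes, dots their neighbours and dashed lines the neighbours' median. The dots around ACTN4 lie almost all above 0 with a median of 1.70, whereas MYL9 and ACTN1 lie above all of their neighbours.

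FLNA (ENSG00000196924.17, chromosome X, positions 154348524 to 154374638) encodes the filamin that crosslinks actin into orthogonal networks. By summed reads it was second among the 10 genes in shSTN1 libraries (97547, against 206578 for ACTN4). In control libraries it was first (72968, against 70843 for ACTN4). It had 1616, 1628 and 1640 CPM in shSTN1 libraries and 1102, 1228 and 1226 CPM in control libraries. The groups did not overlap, at a log2 fold change of 0.46 (SE 0.0522, edgeR adjusted p = 7.46e-08). Scaled by library totals alone it was 0.26, where the median of all genes stood at -0.22. The muscle filamin gene FLNC was lower by a log2 fold change of -0.51.

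The calponins bind actin filaments and, in smooth muscle, dampen myosin's activity on them. CNN2 (ENSG00000064666.15, chromosome 19, positions 1026581 to 1039068), the form of non-muscle cells, had 276, 246 and 265 CPM in shSTN1 libraries and 113, 115 and 128 CPM in control libraries. The groups did not overlap (log2 fold change 1.15, SE 0.0740, edgeR adjusted p = 1.95e-16). The 11 rows named as CNN2 pseudogenes together held 27 reads in shSTN1 libraries and 24 in control libraries. CNN3, the acidic calponin, went the other way, at 53.1 ± 2.28 CPM in shSTN1 and 132 ± 5.35 CPM in control libraries (log2 fold change -1.32, adjusted p = 2.94e-17). CNN2 thus held 19.4% ± 0.344 of the calponin and transgelin level per kilobase in shSTN1 libraries and 9.29% ± 0.605 in control libraries, and CNN3 held 5.05% ± 0.405 in shSTN1 and 13.3% ± 0.803 in control libraries.

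CNN1, the smooth muscle calponin (ENSG00000130176.8, chromosome 19, positions 11538717 to 11550323), was barely detected. It had 32, 50 and 23 reads in shSTN1 libraries and 18, 25 and 15 in control libraries, or 1.56, 2.29 and 1.31 CPM in shSTN1 and 0.866, 1.12 and 0.813 CPM in control libraries. The CPM values did not overlap, and the log2 fold change of 0.88 (SE 0.260) passed with an edgeR adjusted p of 0.0193. The call rested on single libraries: without shSTN1 replicate 2 the adjusted p was 0.164, without control replicate 1 it was 0.0562, and without control replicate 3 it was 0.0614, within 0.00879 to 0.164 over all alternatives. It was also lost with library totals alone for scaling. The log2 read ratio of CNN1 to CNN2 overlapped between groups (difference -0.31, exact permutation p = 0.4, adjusted p = 0.4). It was -0.58 without shSTN1 replicate 2, -0.12 without shSTN1 replicate 3 and -0.15 without control replicate 2.

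TAGLN, which encodes transgelin (ENSG00000149591.17, chromosome 11, positions 117199321 to 117204782), had 169, 202 and 111 reads in shSTN1 libraries and 108, 132 and 122 in control libraries. These correspond to 8.25, 9.25 and 6.30 CPM in shSTN1 libraries and 5.20, 5.91 and 6.61 CPM in control libraries. The lowest shSTN1 library lay below the highest control library. TAGLN passed the test at a log2 fold change of 0.44 (SE 0.190, edgeR adjusted p = 0.0171), but the adjusted p was 0.125 without shSTN1 replicate 2 and 0.102 without control replicate 1, within 0.00245 to 0.191 over all alternatives, where the highest came from scaling by library totals alone. TAGLN shares 446 exon bases with PCSK7 on the opposite strand. PCSK7 had 3213 reads over the shSTN1 libraries and 2034 over the control libraries (log2 fold change 0.70). Since the strand setting of the counting is not given, reads from the shared stretch cannot be assigned. TAGLN2, the transgelin of non-muscle cells, was far more abundant and did not pass the test, at 692 ± 40.0 CPM in shSTN1 and 668 ± 20.2 CPM in control libraries (log2 fold change 0.05, adjusted p = 0.474). The log2 read ratio of TAGLN to TAGLN2 overlapped between groups (difference 0.36, exact permutation p = 0.2, adjusted p = 0.28), and the difference was 0.21 without shSTN1 replicate 2.

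ACTA2, the alpha-smooth-muscle actin gene (ENSG00000107796.13, chromosome 10, positions 88935074 to 88991339), did not differ beyond the spread between libraries. It had 27, 45 and 28 reads in shSTN1 libraries and 42, 52 and 37 in control libraries. The levels were 1.32, 2.06 and 1.59 CPM in shSTN1 libraries and 2.02, 2.33 and 2.00 CPM in control libraries, with 1 shSTN1 library inside the control range. The edgeR log2 fold change of -0.35 (SE 0.189) had an adjusted p of 0.246, and the 95% interval by limma-voom ran from -0.93 to 0.19. ACTA2 shares 380 exon bases with FAS and 516 with ACTA2-AS1, both on the opposite strand. FAS had 338 reads over the shSTN1 libraries and 275 over the control libraries. ACTA2-AS1 had 12 reads over the shSTN1 libraries and 8 over the control libraries.

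Against this trace of ACTA2, the cytoplasmic actins were among the most abundant transcripts. ACTB, beta-actin, had 6874 ± 218 CPM in shSTN1 and 3097 ± 55.8 CPM in control libraries (log2 fold change 1.15, edgeR adjusted p = 2.52e-17), and ACTG1, gamma-actin, was higher by 0.73. The skeletal muscle actin gene ACTA1 had 4, 1 and 2 reads in shSTN1 libraries and 14, 11 and 17 in control libraries (log2 fold change -2.49, adjusted p = 4.81e-04). ACTA2 made up 0.0137% ± 0.00343 of the actin level per kilobase in shSTN1 libraries and 0.0329% ± 0.00357 in control libraries. The log2 read ratio of ACTA2 to ACTB was lower in all 3 shSTN1 libraries, by -1.52 (exact permutation p = 0.1, adjusted p = 0.175).

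Set side by side per kilobase of exon, the order of the 10 genes' levels was nearly the same in both groups. In shSTN1 libraries it ran from ACTN4 (566 CPM per kilobase) through TPM2 (244), FLNA (154), CNN2 (71.9), ACTN1 (45.3), MYL9 (18.2), TPM1 (15.1) and TAGLN (2.03) to CNN1 (0.596) and ACTA2 (0.557). In control libraries FLNA (112 CPM per kilobase) stood above TPM2 (50.8), TPM1 (6.81) above MYL9 (5.33), and ACTA2 (0.712) above CNN1 (0.323). CNN1 and ACTA2 overlapped between libraries of the shSTN1 group, and their order there is not resolved. The order also depends on exon lengths, which are the union of all annotated transcripts (12876 bases for TPM1, 2821 for MYL9). In CPM without division by length, TPM1 stood above MYL9 in shSTN1 (195 against 51.4) and control libraries (87.6 against 15.0). FLNA likewise stood above TPM2 in shSTN1 (1628 against 792 CPM) and control libraries (1185 against 165 CPM).

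The wider actin cytoskeleton differed in both directions. Of 59 other actin cytoskeleton genes, 54 were tested, of which 26 were higher, 19 lower and 9 did not pass, against 74.1% of all genes called in either direction. Their median log2 fold change was 0.14, against 1.11 for the 10 genes and -0.03 over all genes tested. By group the medians ran from -0.41 for regulators of contraction to 1.18 for actin monomer binding genes, of which 5 of 5 were higher. Of the other crosslinkers, 3 were higher, 5 lower, 2 did not pass and 1 was too low to test (median -0.25), beside 35.6% higher and 38.5% lower over all genes. The bundling protein gene FSCN1 (fascin, 0.60) and the spectrin gene SPTBN1 (0.74) were higher. ACTN2 and FLNC were lower, and so was PLS3, plastin 3, at 195 ± 25.6 CPM in shSTN1 and 454 ± 29.9 CPM in control libraries (log2 fold change -1.22, edgeR adjusted p = 6.28e-16).

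Of 12 regulators of contraction, 3 were higher, 8 lower and 1 did not pass (median -0.41), against 35.6% of all genes higher and 38.5% lower. RHOB, a small GTPase that acts on actin organisation, fell to 37.4 ± 1.89 CPM in shSTN1 libraries, against 201 ± 8.67 CPM in control libraries (log2 fold change -2.43, edgeR adjusted p = 2.55e-24). CALD1, caldesmon, which binds actin, tropomyosin and myosin, stood at 7.12 ± 1.15 CPM in shSTN1 and 71.7 ± 6.41 CPM in control libraries (log2 fold change -3.33). LMOD1, the smooth muscle leiomodin that nucleates actin filaments, had 10, 6 and 9 reads in shSTN1 and 201, 266 and 187 reads in control libraries (log2 fold change -4.64). RHOC (0.92), the smoothelin gene SMTN (1.06) and the myosin phosphatase catalytic subunit gene PPP1CB (0.44) were higher.

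Of 9 genes that link stress fibres to adhesions, 6 were higher, 2 lower and 1 did not pass (median 0.69), where 35.6% of all genes were higher and 38.5% lower. The vinculin gene VCL had 677 ± 26.4 CPM in shSTN1 and 325 ± 13.4 CPM in control libraries (log2 fold change 1.06), and VASP (1.10) and SYNPO (1.19) were higher too. The LIM domain genes LIMA1 (-0.66) and PDLIM5 (-0.42) were lower. In the SRF axis MRTFB was higher, at 86.7 ± 7.56 CPM in shSTN1 and 44.8 ± 4.07 CPM in control libraries (log2 fold change 0.95, edgeR adjusted p = 5.24e-12). SRF itself (log2 fold change 0.12, adjusted p = 0.116) and MRTFA (-0.07, adjusted p = 0.409), named after their values were seen, did not pass. MYOCD, the smooth and cardiac muscle cofactor of SRF, had 1, 1 and 3 reads in shSTN1 and 1, 0 and 1 in control libraries.

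**Figure D4:**
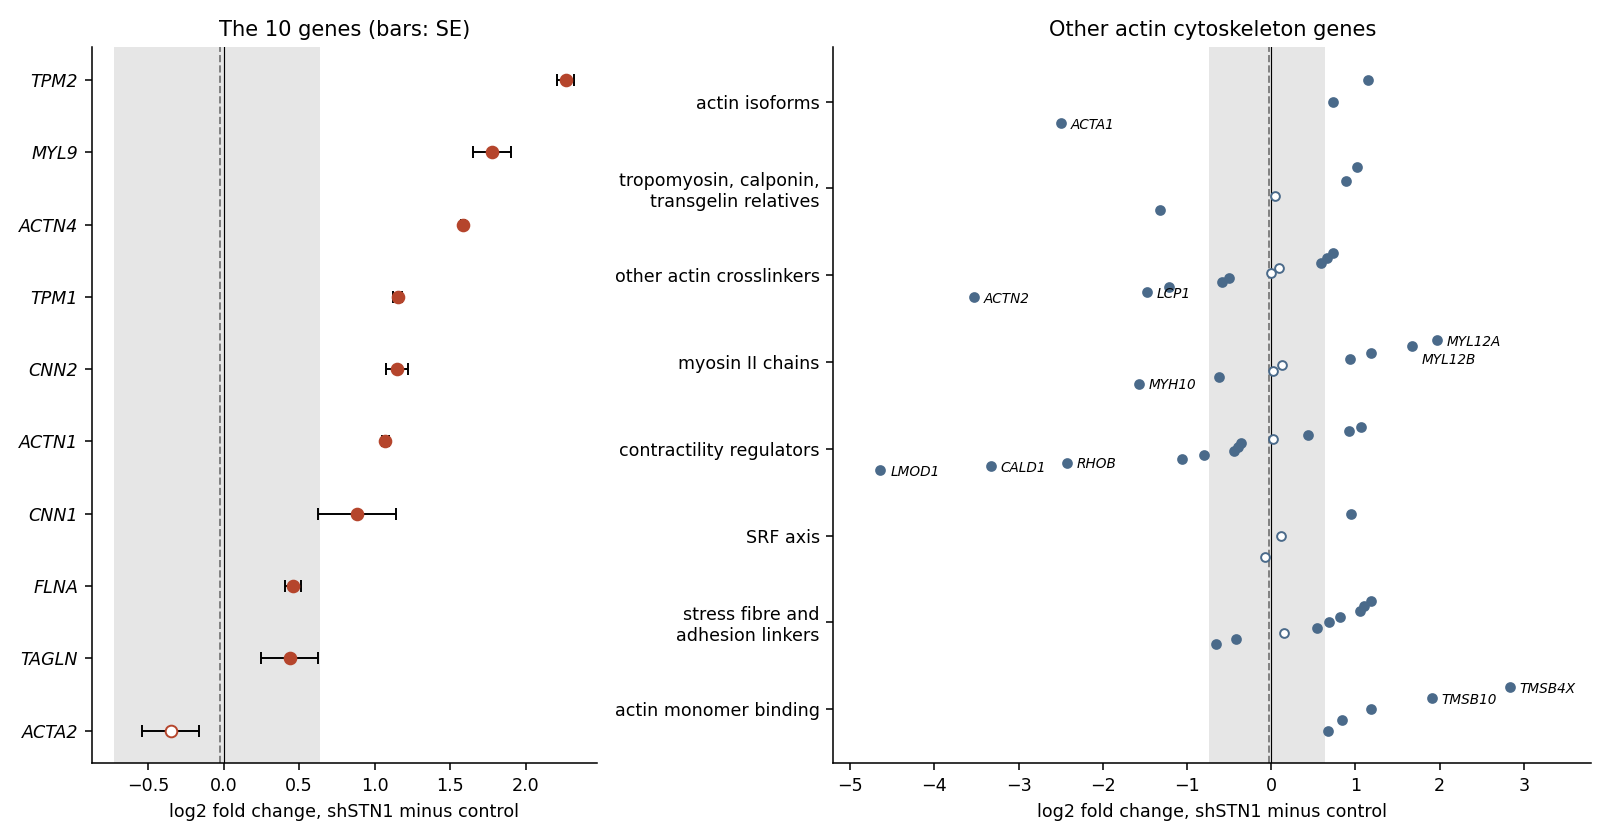
Log2 fold change (horizontal axes, shSTN1 minus control) of the 10 genes with SE (left) and of the other actin cytoskeleton genes by group (right). Filled points passed an edgeR adjusted p of 0.05, the grey band runs from the lower to the upper quartile of all genes tested (-0.72 to 0.63) and the dashed line is their median (-0.03). The 10 genes lie to the right except ACTA2 at -0.35. All 5 actin monomer binding genes lie to the right too, whereas the remaining groups spread to both sides.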

How the data were processed

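The authors deposited raw read counts per gene, without normalization. Reads went through cutadapt and FastQC, STAR 2.7.2b and featureCounts 2.0.1 on GRCh38, per the submitters' processing notes. The annotation release and the strand setting were not stated in the sources used here. Of 60668 rows, 45 second copies of pseudoautosomal genes were left out. Coordinates and exon lengths came from GENCODE 29 by identifier without version, and promoter windows from RefSeq.

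Counts were fitted over all genes with edgeR 4.0.16 in R 4.3.3 (filterByExpr, TMM factors, robust quasi-likelihood test, no covariates, shSTN1 minus control). Benjamini-Hochberg adjustment ran over 17451 genes, with a threshold of 0.05. SEs are those of the difference of mean log2 CPM (prior count 2), not of the fit. Read ratios used 0.5 added to each count. The 10 genes, the other gene lists and the tests were chosen with earlier results of these data known. Beside the 10 genes, up to 3 higher and 3 lower genes with the smallest adjusted p were named from each list, with the partners of the 7 ratios. The ratio of FLNA is not reported here. Alternatives were RLE, upper-quartile or no scaling factors, 2 low-count filters, DESeq2 1.42.0, limma-voom (limma 3.58.1), the replicate number as a block and leaving out each library. Within groups, pairs of libraries gave a chi-square of 3.02 to 8.89 for each degree of freedom, above sampling noise, and each was counted as a separate library.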

Additional observations from a re-analysis of the deposited data

How the results depend on the processing

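Over the 14 alternatives, 12074 to 13901 genes passed the threshold, 7 to 9 of the 10 genes and 43 to 47 of the other actin cytoskeleton genes. No member changed direction. With library totals alone for scaling, the median of all genes moved to -0.22, against -0.03 with TMM factors, and 38.0% of called genes were higher, against 48.0%. Under that scaling TAGLN (log2 fold change 0.24, edgeR adjusted p = 0.191) and CNN1 (0.68, adjusted p = 0.0678) did not pass, whereas STN1 passed as lower (-0.35, adjusted p = 0.00909).

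With each library left out in turn, 12586 to 12857 genes and 7 to 9 members passed, with log2 fold changes of 0.32 to 0.58 for TAGLN, 0.62 to 1.04 for CNN1, -0.54 to -0.20 for ACTA2 and -0.22 to -0.06 for STN1. The calls of TAGLN and CNN1 were lost in some of these fits, and with library totals, but in no other alternative. The other 7 called members passed in all of them. The difference of the read ratio ran from -1.14 to -1.07 for TPM1 to TPM2, -0.58 to -0.12 for CNN1 to CNN2, -0.32 to -0.08 for MYL9 to MYL12A and 0.21 to 0.51 for TAGLN to TAGLN2, and no ratio changed direction with 2 added in place of 0.5.

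Same-numbered libraries deviated together with correlations of -0.0123, 0.0171 and -0.0337, so a shared number is no pairing here. With the replicate block 12742 genes passed, 12710 of them shared with the fit without it, and 9 members and 45 of the other genes passed. At 15 to 50 reads per library for CNN1, and 27 to 52 for ACTA2, small differences were not detectable at this depth.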

Other observations

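Transcripts of genes whose proteins hold or recycle actin monomers were higher in shSTN1 libraries for 5 of 5 genes, against 35.6% of all genes tested, and their median log2 fold change was 1.18, against -0.03 over all genes. TMSB4X, thymosin beta 4, which sequesters actin monomers, had 2240 ± 243 CPM in shSTN1 and 313 ± 53.4 CPM in control libraries (SD, n = 3 each, log2 fold change 2.84, edgeR adjusted p = 3.02e-17). TMSB10, its relative, had 1388 ± 140 CPM in shSTN1 and 369 ± 19.4 CPM in control libraries (log2 fold change 1.91). CFL1, cofilin, which severs filaments, had 1786 ± 57.2 CPM in shSTN1 and 788 ± 24.0 CPM in control libraries (log2 fold change 1.18).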
